A study of Mus musculus with 10 samples.

Results

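The cytosolic ribosomal protein genes are the genes for the protein subunits of the ribosomes that translate nuclear messenger RNAs. They were taken by symbol from the gene table of the array: Rps or Rpl followed by a digit, Rpsa, and Rplp0 to Rplp2. The kinases of the Rps6k family (6 genes), 3 pseudogene symbols and 4 entries whose symbol was joined with another were left out. This gave 72 genes among the 17097 genes on the array that had a probe set with a single symbol, and where a gene had several probe sets the brightest, by its average on all 10 arrays, stood for it. Of these, 25 encode small subunit proteins and 45 large subunit proteins. The symbols of the remaining 2 match although their products are not subunits: Rps19bp1 encodes a protein that binds Rps19, and Rpl7l1 a nucleolar protein related to Rpl7. A signal filter, a probe set mean above 4.58 log2 units, was passed by 69 of the 72 (24 small subunit, 43 large subunit and both others) and by 10734 genes in all. Rpl39l, Rpl3l and Rps15a did not pass it and were not tested.

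The study profiled blood neutrophils of untreated C57BL/6 mice, all males, 3 months old, that had spent 9 days in the facility. One group was 5 individual mice, each on an array of its own. In the other group, blood drawn from 5 further animals was combined, then divided in 5 ahead of the isolation, so the 5 pool arrays are technical replicates of 1 sample, and the question was how much expression differs between animals beyond technical noise. Neutrophils were isolated with magnetic labelling of Ly6G, with a purity of 71.5% to 99.5% and no value for each sample in the sources used here, and the RNA went through a labelling with 2 rounds of cDNA synthesis. All values below are log2 signals after robust multi-array averaging (RMA), in which 1 unit is a doubling.

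A ribosome consists of a small subunit, which reads the codons of the messenger RNA, and a large subunit, which joins the amino acids. Each subunit protein is needed in a fixed ratio to the others, and the transcripts share a start within a run of pyrimidines through which mTOR signalling controls their translation. Dividing precursors in the bone marrow make many ribosomes, mature neutrophils make little protein, and resting lymphocytes keep abundant ribosomal protein transcripts.

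Mouse 5 and, less so, mouse 4 stood apart from the other arrays. In mouse 5 the 95th percentile of signal was 7.46, against 8.72 to 9.25 elsewhere, and the 3′ control probe set of Gapdh read 7.78, against 11.62 to 12.25. The Actb control fell by 4.57 from its 3′ to its 5′ probe set in mouse 5 and by 4.41 in mouse 3, against 1.28 to 2.72 on the other arrays. For Gapdh the same difference was smallest in mouse 5 (3.05), where the 3′ signal itself was lowest, and largest in mouse 3 (6.16). A low 3′ signal leaves little room for this difference, so its value in mouse 5 does not rank that array. Poly-A spike controls were lowest in mouse 5 (5.69, against 7.31 to 10.44), and hybridization controls were highest there (11.71, against 9.00 to 10.66). Over the ribosomal protein genes, mice 1 and 2 correlated at 0.997, mouse 4 with mice 1 to 3 at 0.848 to 0.906, and mouse 5 with the other mice at 0.580 to 0.593; these correlations run across genes, which are not independent replicates. Among pool arrays, pool 5 had the lowest 95th percentile and the lowest Gapdh control signal (11.66). Each comparison is therefore given with all 5 mice, without mouse 5, and without mice 4 and 5.

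The ribosomal protein genes were low together in mouse 4 and mostly far lower in mouse 5, while mice 1 to 3 and the pool arrays lay close to each other. Relative to each gene's mean over the 10 arrays, the median of the members was 0.52, 0.41, 0.94, -1.19 and -2.93 in mice 1 to 5. On pool arrays 1 to 5 it was 0.58, 0.42, 0.50, 0.50 and -0.20. All tested genes had medians between -0.44 and 0.13 in the mice and between -0.05 and 0.18 in the pool, so mice 4 and 5 were low in these genes well beyond the shift of the typical gene. In bulk RNA, fewer cells that carry these transcripts and less of them per cell cannot be told apart.

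**Figure D1:**
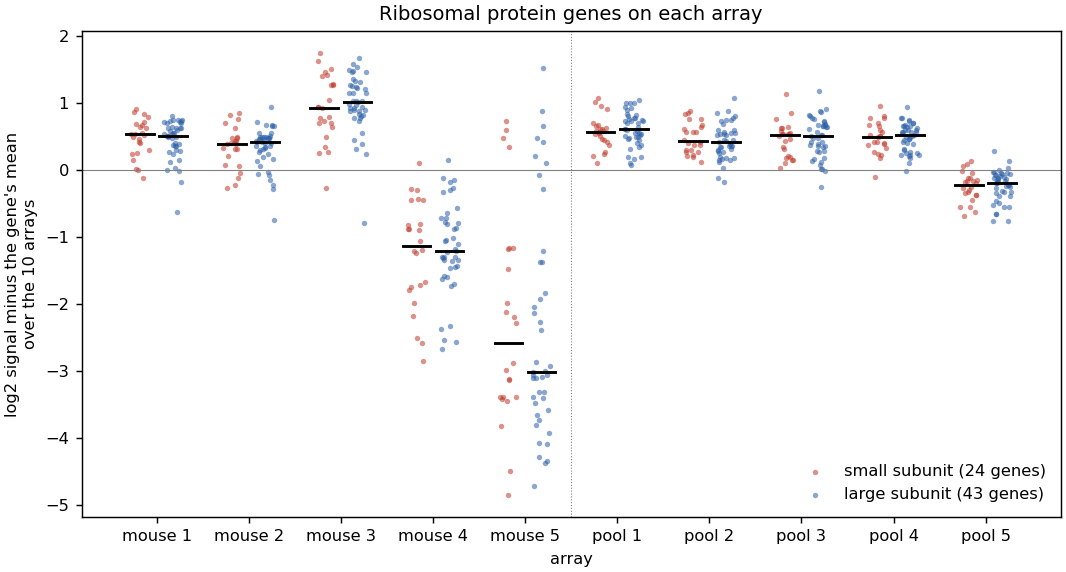
Signal of the 67 tested subunit genes on each of the 10 arrays, as the log2 value minus the gene's mean over all arrays; each point is a gene and the bar is the median of its subunit. The medians of both subunits lie between 0.39 and 1.02 in mice 1 to 3, at -1.13 and -1.21 in mouse 4, and at -2.58 and -3.01 in mouse 5.

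Small and large subunit genes moved side by side. The small subunit median was 0.53, 0.39, 0.93, -1.13 and -2.58 in mice 1 to 5, and the large subunit median was 0.51, 0.42, 1.02, -1.21 and -3.01. The small minus large difference lay between -0.09 and 0.07 in mice 1 to 4 and between -0.04 and 0.01 on the pool arrays. In mouse 5 it was 0.43, so the large subunit median was lower there. Values of that array depended on the probe set, as given below. Against mice 1 to 3, chosen probe sets ending in x_at had a median of -2.04 in mouse 5 and those ending in a_at -4.09. The part of the probe set kinds in the subunit difference was not tested. Over the 5 mice the small minus large difference had a mean of 0.08. Genes of 1 array are not replicates, so the difference between subunits has no test.

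The spread between mice was large for both subunits. The median SD over the 5 mice was 1.52 for small and 1.73 for large subunit genes, against 0.57 for all tested genes. Among mice 1 to 4 it was 0.95 and 0.92, against 0.33 for all tested genes, and among mice 1 to 3 it was 0.38 and 0.40, against 0.19. The SD between the 5 pool arrays was 0.36 and 0.38, close to that among mice 1 to 3; without pool 5 it was 0.15 and 0.16.

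The variance between mice was tested against the variance between pool arrays with limma's moderated variance over all 10734 genes. Of the 69 members, 66 varied more between mice than between pool arrays (limma, adjusted p under 0.05), comprising 22 of 24 small and 42 of 43 large subunit genes; of all tested genes, 66.8% did. An ordinary F test called 48 of 69 members (35% of all tested genes), and a Levene type test on absolute deviations called 0 members and 0 genes (0 members and 836 genes at an unadjusted p under 0.05). Without mouse 5, 40 of 69 did (14 small, 25 large and Rps19bp1), against 20.3% of all tested genes. Without mice 4 and 5, limma called 0 of 69, against 0.708% of all tested genes; at an unadjusted p under 0.05 there were 1 member and 959 of the 10734 genes. The median log2 ratio of the variances over the members was 4.49, 2.85 and 0.03 in these fits, and 2.72, 0.97 and -0.65 over all tested genes. The calls therefore rested on mice 4 and 5. Their array-wide shifts, given above, moved with the result. After a second quantile normalization, 68 of 69 members were called by limma (78.1% of all tested genes), and the members' median differences from mice 1 to 3 were -1.59 in mouse 4 and -2.37 in mouse 5, against 0.00 and -0.04 over all tested genes. Members are also bright: 64 of the 69 lie above the 75th percentile of signal of the tested genes, and of the genes above it, 76.2% were called with all mice and 10.6% without mouse 5. In the opposite direction, less variance between mice than between pool arrays, limma called 0 members and 0% of all tested genes in each fit; at an unadjusted p under 0.05 there were 0, 1 and 0 members, and 58, 317 and 795 of the 10734 genes.

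**Figure D2:**
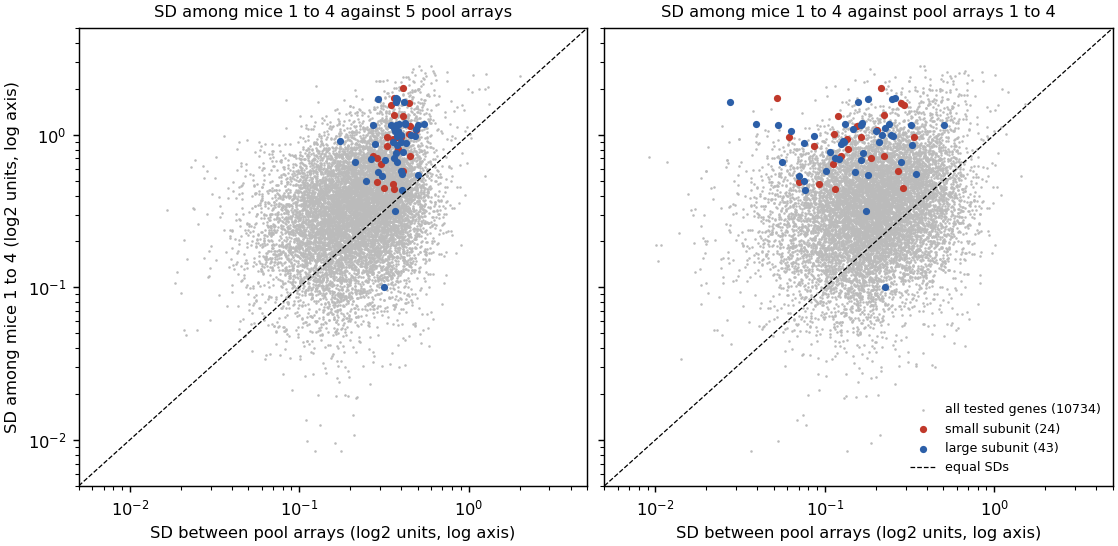
SD among mice 1 to 4 (vertical, log axis) against the SD between pool arrays (horizontal, log axis), with all 5 pool arrays on the left and pool arrays 1 to 4 on the right; grey points are the 10734 tested genes, coloured points the small and large subunit genes, and the dashed line marks equal SDs. The 67 coloured subunit genes lie above the line except Rpl9 and Rpl13 on the left and Rpl13 on the right; Rpl7l1, in neither subunit and not coloured, has SDs of 0.37 among mice 1 to 4 and 0.39 between the 5 pool arrays.

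Among the small subunit genes, Rps19, whose human counterpart is mutated in Diamond-Blackfan anaemia, had the largest SD among mice 1 to 4. Its signal was 9.85, 9.68, 10.72, 6.13 and 5.53 in mice 1 to 5, and 10.05, 9.75, 9.56, 9.64 and 8.93 on pool arrays 1 to 5. Mice 4 and 5 lay below every pool array, mice 1 and 2 lay within the pool range, and mouse 3 lay above it. The SD was 2.37 in the mice and 0.41 in the pool, and the variance differed by limma with all mice (adjusted p = 9.09e-05) and without mouse 5 (adjusted p = 0.000637). Rps12, another small subunit protein, read 9.72, 9.60, 10.59, 6.60 and 5.80 in the mice, whereas the pool arrays read 10.10, 10.03, 10.03, 10.14 and 9.27 (limma adjusted p without mouse 5 = 0.00112). It had the same order as Rps19, with mouse 3 highest and mouse 5 lowest.

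Rps4x, the X-linked gene of a small subunit protein, read 11.97, 12.04, 12.91, 9.30 and 7.47 in the mice, against 11.41 to 12.24 in the pool. Rpsa, which also serves as a laminin receptor, read 11.53, 11.35, 12.54, 8.76 and 10.11 in the mice, against 11.03 to 12.10 in the pool. In Rpsa mouse 4, and not mouse 5, was the lowest array, so its SD was larger among mice 1 to 4 (1.61) than among all 5 (1.45). Rps3a1, a small subunit protein near the messenger RNA exit, had the opposite emphasis: 11.48, 11.27, 12.15, 9.84 and 5.81 in the mice against 10.70 to 11.66 in the pool. Its mouse 5 value was 5.83 units under the mean of mice 1 to 3, the largest drop in mouse 5 of any tested member.

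The small subunit genes that spread least among mice 1 to 4 were Rps16, Rps27l and Rps29. Rps16 read 11.75, 11.77, 12.11, 11.06 and 8.22 in the mice, whereas the pool arrays read 11.92, 11.74, 11.97, 11.75 and 11.07, so mouse 4 lay just under the lowest pool array and mouse 5 far under it. Its variance was called with all mice (limma adjusted p = 0.000281) and not without mouse 5 (adjusted p = 0.398). Rps27l, a paralog of Rps27 known as a p53 target, read 7.50, 7.10, 7.05, 6.41 and 4.74 in the mice, against 6.52 to 7.28 in the pool. Rps29, a zinc-binding protein of the small subunit, read 12.60, 12.49, 12.97, 11.83 and 13.30 in the mice, with mouse 5 highest, against 12.17 to 13.08 in the pool. It was among the 3 members without a variance call with all mice (limma adjusted p = 0.076); the others were Rps21 (adjusted p = 0.0612) and Rpl37 (adjusted p = 0.259).

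In the large subunit, Rpl3, which lies next to the peptidyl transferase centre, read 11.83, 11.73, 12.75, 8.75 and 7.98 in the mice. On the pool arrays it read 12.02, 11.39, 11.65, 11.71 and 11.02. Mice 4 and 5 were below every pool array and mouse 3 was above every one. Its SD was 1.74 among mice 1 to 4 and 0.37 in the pool (limma adjusted p = 0.000106 with all mice and 0.00093 without mouse 5). Rpl12, a protein at the base of the stalk, read 9.27, 9.41, 9.46, 5.94 and 5.38 in the mice, against 8.44 to 9.47 in the pool. Its SD among mice 1 to 3 was 0.10, so in this gene the spread came from mice 4 and 5. Rpl35, which sits by the exit of the nascent chain, read 11.07, 10.95, 11.98, 8.15 and 10.93 in the mice, whereas the pool arrays read 11.22, 11.35, 10.99, 11.27 and 10.33. Here mouse 4 alone was low, and mouse 5 lay within the pool range.

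Rpl9, Rpl13 and Rpl37 spread least among mice 1 to 4 in the large subunit. Rpl9 read 12.42, 12.20, 12.60, 11.87 and 7.38 in the mice, against 11.54 to 12.49 in the pool, and its variance was called with all mice (limma adjusted p = 8.71e-05) and not without mouse 5 (adjusted p = 0.65). Rpl13 read 9.03, 8.92, 8.87, 9.09 and 11.18 in the mice, whereas the pool arrays read 10.10, 10.19, 9.68, 10.07 and 9.46. On this probe set mice 1 to 4 were all below the pool, and mouse 5 was above it. The gene's other probe set, given below, had another pattern. Rpl37 read 11.29, 11.02, 11.62, 10.58 and 11.72 in the mice, whereas the pool arrays read 11.50, 11.64, 11.48, 11.58 and 10.66, so both groups covered nearly the same range.

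The stalk proteins Rplp0, Rplp1 and Rplp2, which recruit the elongation factors to the ribosome, were lowest in mouse 5. Rplp0 read 11.32, 11.25, 12.03, 9.97 and 6.41 in the mice, against 10.92 to 11.78 in the pool. Rplp1 read 10.62, 10.68, 11.29, 9.48 and 6.86, against 10.14 to 11.11. Rplp2 read 11.71, 11.53, 11.88, 9.54 and 6.27, against 10.92 to 12.15. For all 3, mice 4 and 5 were below every pool array. Without mouse 5, limma called the variance of Rplp2 (adjusted p = 0.0263) and Rplp0 (adjusted p = 0.0498) and not that of Rplp1 (adjusted p = 0.0923).

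The paralogs gave mixed patterns. Rpl22, which also binds RNA outside the ribosome, read 8.71, 8.62, 9.20, 7.13 and 6.19 in the mice, against 7.97 to 8.95 in the pool. Its paralog Rpl22l1 read 8.21, 8.28, 9.19, 5.23 and 5.56, against 7.57 to 8.37. Both were low in mice 4 and 5, and Rpl22l1 had the smallest adjusted p of the members without mouse 5 (limma adjusted p = 0.000526, against 0.0488 for Rpl22). Rpl36a read 6.90, 6.67, 6.65, 4.92 and 4.90 in the mice (pool 6.29 to 6.75), and Rpl36al read 8.26, 8.07, 8.83, 6.72 and 5.34 (pool 7.23 to 8.14), and the variance of both was called without mouse 5 (limma adjusted p = 0.00248 and 0.0323). Rpl7 read 11.72, 11.68, 12.44, 11.09 and 6.92 in the mice (pool 11.16 to 12.20). Rpl7l1 read 7.53, 7.22, 7.07, 6.65 and 4.35 (pool 6.32 to 7.27). In both, mouse 5 stood far below mouse 4 on the chosen probe set, and neither was called without mouse 5 (limma adjusted p = 0.255 and 0.497). Another probe set of Rpl7 read 4.91 in mouse 4 and 4.84 in mouse 5, and the remaining one 9.00 and 4.54. The other probe sets of Rpl7l1 read 5.92 and 5.16 in mouse 4 and 5.57 and 4.52 in mouse 5. Rpl39 read 12.42, 12.36, 13.13, 11.82 and 13.25 in the mice (pool 12.04 to 12.80). Its paralog Rpl39l, known from testis, stayed between 4.06 and 4.94 in the mice and between 4.23 and 4.48 in the pool. Rpl3l, a paralog of Rpl3 known from striated muscle, read 2.91 to 3.95 and 3.21 to 3.43. Both were under the signal filter, where no difference can be measured.

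Taken gene by gene, mouse 4 was below each of mice 1 to 3 in 67 of 69 members, against 52% of all tested genes. The exceptions were Rpl13 and Rps9. The difference of mouse 4 from the mean of mice 1 to 3 had a median of -1.71 (small subunit -1.68, large subunit -1.79, all tested genes -0.22) and ran from -3.95 in Rps19 to 0.15 in Rpl13. It was more than 1 log2 unit below in 55 members, 19 small and 35 large subunit genes and 1 other, against 17.1% of all tested genes. In 63 members mouse 4 was also below every pool array, against 46.9% of all tested genes.

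Mouse 5 gave a wider range. It was below each of mice 1 to 3 in 59 of 69 members, against 58.1% of all tested genes. The median difference was -3.39 (small subunit -3.23, large subunit -3.69, all tested genes -0.57), from -5.83 in Rps3a1 to 2.24 in Rpl13. It was more than 1 log2 unit below in 57 members, against 40.4% of all tested genes, and it was above each of mice 1 to 3 in 6, against 31.3%. The tested genes above the 75th percentile of signal, where 64 of the members lie, were themselves low in mouse 5, with a median of -2.07, and not in mouse 4, with a median of -0.25; their median SD over the 5 mice was 1.06.

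**Figure D3:**
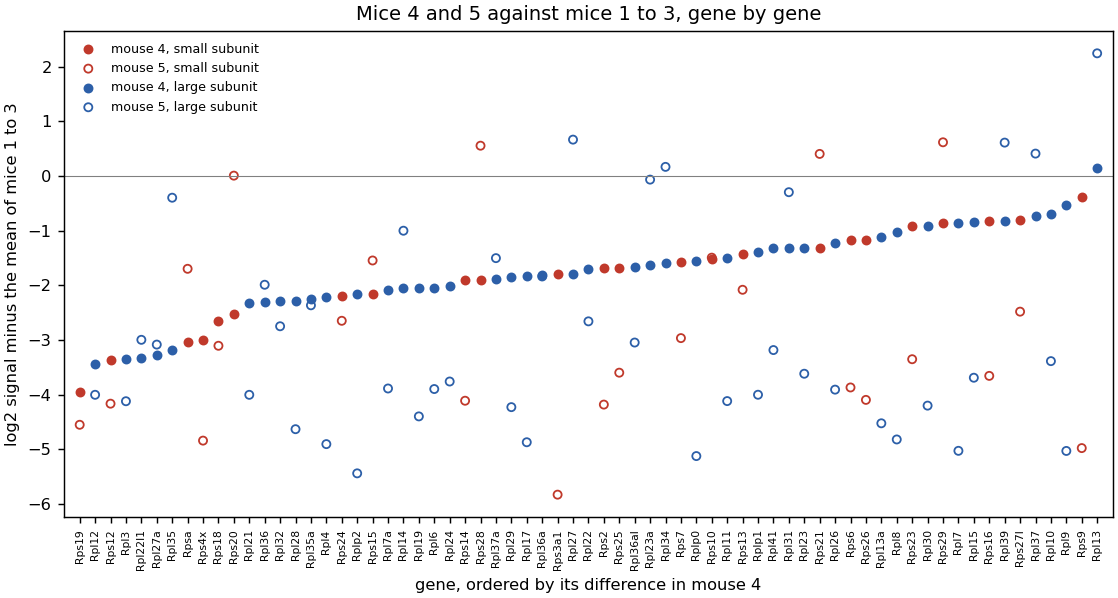
Difference of mouse 4 (filled) and mouse 5 (open) from the mean of mice 1 to 3 in log2 units, for each tested subunit gene, coloured by subunit. Mouse 4 values run from -3.95 to 0.15 and mouse 5 values from -5.83 to 2.24, and genes that are near 0 in mouse 5 are mostly below 0 in mouse 4.

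Mouse 5 was within 1 log2 unit of the mean of mice 1 to 3, or above it, in 12 members: Rpl13, Rpl23a, Rpl27, Rpl31, Rpl34, Rpl35, Rpl37, Rpl39, Rps20, Rps21, Rps28 and Rps29. In mouse 4, 11 of these 12 were below the mean of mice 1 to 3, with a median of -1.46, against -1.82 in the other 57. Their chosen probe sets ended in x_at in 8 cases, in a_at in 3 and in s_at in 1; on these arrays an x_at probe set holds probes that can match further transcripts. For 11 of the 12 another probe set of the gene also passed the filter, and for 6 of these it lay more than 1 unit below mice 1 to 3: Rpl13 (-3.30), Rpl23a (-6.00), Rpl27 (-1.80), Rpl35 (-3.41), Rpl37 (-4.95) and Rps21 (-2.36). In mouse 5, 4 probe sets of Rpl23a thus read -0.07, -2.69, -3.82 and -6.00, whereas in mouse 4 they lay between -2.12 and -1.62.

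Over the 33 members with more than 1 probe set above the filter, the gap between the highest and the lowest difference exceeded 2 log2 units in 19 members in mouse 5 and in 4 members in mouse 4. The median gaps were 2.25 and 0.95. Over all member probe sets above the filter, mouse 5 was more than 1 unit below mice 1 to 3 in 39 of 44 ending in a_at and in 24 of 44 ending in x_at. The corresponding shares over all tested genes were 46.7% and 29.3%. The level of a member in mouse 5 therefore depended on the probe set, and the values of that array are given with this limit. Ribosomal protein genes also have many processed pseudogenes of near-identical sequence, which probe sets of this design can share.

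**Figure D4:**
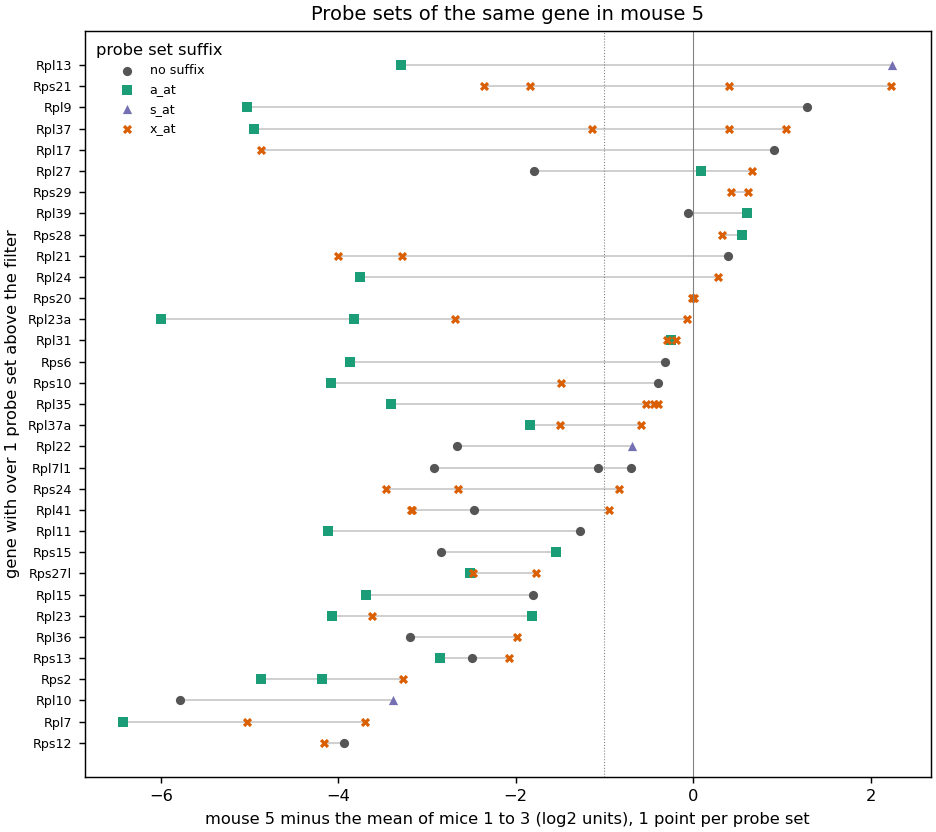
Difference of mouse 5 from the mean of mice 1 to 3 in log2 units, for every probe set above the filter of the 33 members that have more than 1; each row is a gene, each point a probe set, with the shape giving the ending of its name, and the dotted line marks 1 unit below. In 17 genes 1 probe set lies past the dotted line and another does not.

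Within the pool, 1 array differed from the rest. Pool 5 was the lowest of the 5 pool arrays in 68 of 69 members, with Rpl4 as the exception, against 37.2% of all tested genes. Its difference from the mean of pool arrays 1 to 4 had a median of -0.75 (small subunit -0.77, large subunit -0.75, all tested genes -0.13) and ran from -1.12 in Rpl36 to -0.30 in Rpl36a. After a second quantile normalization it was lowest in 45 of 69, against 19.5% of all tested genes, with a median of -0.26. Without pool 5 the median SD between pool arrays was 0.16 for the members and 0.19 for all tested genes, in place of 0.37 and 0.23. All 5 arrays came from the same mixed blood. With mouse 5 and pool 5 both left out, limma called 62 of 69 members more variable between mice, against 19% of all tested genes. With mice 4 and 5 and pool 5 left out it called 0, against 0.438% of all tested genes; at an unadjusted p under 0.05 there were 26 of 69 members and 1148 of 10734 genes.

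Mouse 3 was the highest of mice 1 to 3 in 62 of 69 members, against 42.7% of all tested genes. It exceeded the mean of mice 1 and 2 by a median of 0.60, against 0.00 over all tested genes. After a second quantile normalization it was highest in 46, against 36.2% of all tested genes, with a median of 0.27. Camp, Ltf and Ngp, granule genes of late neutrophil precursors and among the neutrophil markers, were also high in mouse 3. Camp read 6.96, 6.12 and 11.80 in mice 1 to 3, Ltf read 7.41, 6.60 and 12.56, and Ngp read 8.98, 8.33 and 13.26. Of the same list, Lcn2 rose less (11.43, 10.97 and 11.87), Mmp9 was nearly level (11.97, 12.08 and 12.09) and Il1r2 was lowest in mouse 3 (10.28, 10.07 and 9.61). On the pool arrays Camp read 9.50 to 10.65 and Ltf 9.53 to 11.14, above mice 1 and 2. The members' medians on pool arrays 1 to 4, 0.42 to 0.58, were near those of mice 1 and 2 (0.52 and 0.41). The part of Camp, Ltf and Ngp in the members' values was not tested, and with 1 array for each mouse the difference has no replicate check.

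The means of the mice and of the pool did not differ beyond the spread between mice. Limma called 0 of 69 members at an adjusted p under 0.05, with 0 members at an unadjusted p under 0.05; of all tested genes 0% were called higher and 0% lower, with 560 at an unadjusted p under 0.05. The members' median difference, mice minus pool, was -0.75 with all mice, -0.23 without mouse 5 and 0.22 without mice 4 and 5. The members with the lowest differences were Rplp2 at -1.58 (SE 1.18), Rps12 at -1.45 (SE 1.08) and Rpl41 at -1.29 (SE 0.76). At the other end were Rpl14 at 0.21 (SE 0.51), Rpl34 at 0.03 (SE 0.53) and Rpl39 at 0.01 (SE 0.40). Rpl14 was dim throughout, with 5.49, 5.20, 6.49, 3.67 and 4.73 in the mice, against 4.46 to 5.47 in the pool. Without mouse 5, limma called 0 members, against 0.0186% of all tested genes higher and 1.43% lower. At an unadjusted p under 0.05 there were 1 member and 1333 of the 10734 genes. Without mice 4 and 5 limma called 1, Rpl13, lower by -0.97 (SE 0.16, adjusted p = 0.0469, n = 3 mice), against 1.08% higher and 3.28% lower of all tested genes. At an unadjusted p under 0.05 that fit gave 7 members and 2861 genes. The other probe set of Rpl13 read 9.72, 9.77, 9.98, 7.94 and 6.53 in the mice. On the pool arrays it read 9.74, 9.81, 9.75, 9.87 and 8.97. There mice 1 and 2 lay within the pool range and mouse 3 above it, so this probe set did not show the lower level. All pool arrays come from 1 pool, so they add no estimate of the spread between pools.

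Genes that work with the ribosomal proteins were examined by lists, whose counts stand against the 66.8%, 20.3% and 0.708% of all tested genes called with all mice, without mouse 5 and without mice 4 and 5. Of 13 ribosome partners and elongation factors, 10 were tested; 10 of these varied more between mice than between pool arrays with all mice, 4 without mouse 5 and 0 without mice 4 and 5. Their median difference in mouse 4 from mice 1 to 3 was -1.39 and in mouse 5 it was -3.35, both near the members' own. Naca, a subunit of the complex that meets nascent chains at the exit, read 9.38, 9.30, 10.03, 6.32 and 4.08 in mice 1 to 5 (limma adjusted p without mouse 5 = 0.00179). Fau, whose product carries the small subunit protein eS30, read 12.02, 11.89, 11.50, 11.22 and 9.33 (adjusted p = 0.507). Of the elongation factor genes, limma called Eef1b2 (adjusted p = 0.0205) and Eef1d (adjusted p = 0.0364) without mouse 5.

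Of 40 ribosome assembly factors, 33 were tested, with 24 called with all mice, a share near that of all tested genes, 15 without mouse 5 and 0 without mice 4 and 5. Their median differences were -0.96 in mouse 4 and -0.88 in mouse 5. The lowest in mouse 4 was Rrs1, needed for large subunit maturation, at -3.65 (limma adjusted p without mouse 5 = 0.000463), followed by Pes1, a factor of large subunit rRNA processing, at -2.55 (adjusted p = 0.000717). The nucleolar chaperone Npm1 was at -2.38 (adjusted p = 0.00731). Of 13 RNA polymerase I genes, 8 were tested, with 7, 2 and 0 called in the same fits; their medians were -0.53 in mouse 4 and -1.59 in mouse 5. Of 15 regulators of ribosomal protein translation, in the mTOR and S6 kinase pathway, 10 were tested, with 7, 3 and 0 called and medians of -0.14 and -1.36. Of 73 mitochondrial ribosomal protein genes, which serve the separate ribosome of mitochondria, 64 were tested, with 45, 25 and 0 called and medians of -0.79 and -1.06. With all mice, the shares called among the regulators and the mitochondrial genes were likewise near that of all tested genes. The cytosolic members were lower in mouse 5 than in mouse 4, whereas assembly factors and mitochondrial ribosomal proteins had similar medians in both. The lists also differ in signal: 64 of the members lie above the 75th percentile of the tested genes. Genes above it had medians of -0.25 in mouse 4 and -2.07 in mouse 5. The difference between lists and the part of signal in it were not tested.

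Markers of the cell types in such a preparation moved with the members on some arrays. The median relative level of 10 B cell markers was 0.91, 0.88, 1.84, -2.52 and -2.00 in mice 1 to 5 and 0.88, -0.33, 0.22, 0.12 and -0.10 on pool arrays 1 to 5. Like that of the members, this median was highest in mouse 3 and low in mice 4 and 5. Single markers differed. Cd79a (8.11, 7.70 and 7.41), Cr2 (8.05, 7.97 and 7.85) and Fcer2a (8.25, 8.29 and 7.89) were lowest in mouse 3 among mice 1 to 3. In mouse 5, Cd79a was only at -0.34 against mice 1 to 3. The mean relative level of the B cell markers ran from -2.59 to 1.68 in the mice and from -0.21 to 0.85 in the pool. Of these markers, 9 of 10 varied more between mice with and without mouse 5, against 66.8% and 20.3% of all tested genes. Ms4a1, the B cell surface protein CD20, read 9.99, 10.02, 11.65, 5.71 and 6.82 in mice 1 to 5. In pool 2, where the B cell median was lowest of the pool, the members' median was 0.42, whereas in pool 5 the members were lowest. The 11 neutrophil markers had medians of 0.02, 0.04, 0.71, 0.03 and -2.75 in the mice and -0.10 to 0.80 in the pool, so their median was not low in mouse 4, although single markers went both ways there. Against mice 1 to 3, the integrin gene Itgam was at -0.68, whereas the decoy receptor gene Il1r2 was at 2.17 and Lcn2 at 1.00. The granule genes Camp, Ltf and Ngp were at -2.06, -2.02 and -0.93, but mouse 3, high in them, raised that mean. In mouse 4, Camp (6.23) and Ltf (6.84) lay between mice 1 and 2, and Ngp (9.26) lay above both. Of the neutrophil markers, 9 of 11 were called with all mice, 4 without mouse 5 and 3 without mice 4 and 5. In these fits 66.8%, 20.3% and 0.708% of all tested genes were called. The part of any of these cell types in the members' values was not tested.

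**Figure D5:**
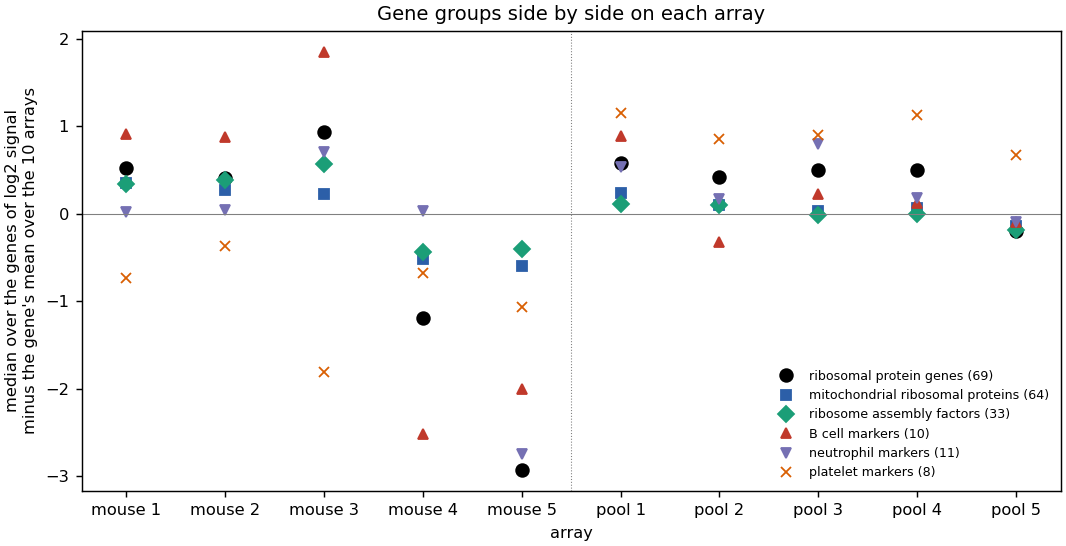
Median log2 level relative to each gene's mean over the 10 arrays, for the ribosomal protein genes and for lists of companion and marker genes, on each array. In mouse 4 the members (-1.19) and the B cell markers (-2.52) are low and the neutrophil markers are at 0.03; in mouse 5 these 3 groups lie between -2.93 and -2.00, below the assembly factors (-0.40) and the mitochondrial ribosomal proteins (-0.60).

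For the other marker lists, the counts called with all mice, without mouse 5 and without mice 4 and 5 were as follows. They stand against 66.8%, 20.3% and 0.708% of all tested genes. T cell markers gave 3, 0 and 0 of 7, with a median of -0.01 in mouse 4 against mice 1 to 3. NK cell markers gave 3, 1 and 0 of 6. Monocyte markers gave 5, 2 and 0 of 6, with a median of -1.08. Platelet markers gave 6, 5 and 1 of 8, with medians of -1.81 to -0.37 in the mice, against 0.67 to 1.15 in the pool. Erythroid markers gave 3, 3 and 0 of 4, with a median of -2.66 in mouse 4 against mice 1 to 3. In mouse 4, where the members were low, the B cell, monocyte and erythroid medians against mice 1 to 3 were thus low too. The monocyte markers were split there, from -2.56 in Adgre4 to 0.74 in Ccr2. The NK cell median was -0.37 and the T cell median -0.01. Relative to each gene's mean over all arrays, the T cell median was -0.45 in mouse 4, against -0.22 to -0.12 in mice 1 to 3. Some T cell markers were dim, with Cd28 at 4.46 and Cd8b1 at 4.48 in mouse 1, near the filter of 4.58.

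Since the members moved together, the starts of their genes were compared. RefSeq promoter windows of build GRCm38.p6, from 250 bases before to 50 after the start, were at hand for 58 of the 72 members (69 windows). CTTTCC, a run of pyrimidines of the kind found at the start of ribosomal protein transcripts, was sought anywhere in the window on either strand. A match therefore need not be the run at the transcript start. It was present in 34 of 69 windows (49.3%), against 26.6% of all 32851 windows. CCGGAAG, the core bound by ETS family factors, was present on either strand in 26 (37.7%), against 8.86% of all windows. Matches of the motifs can share at most 2 bases. Tested members with either motif numbered 39, with a median difference of -1.66 in mouse 4 and 22 called without mouse 5. The 16 with neither had a median of -1.89 and 9 called, so members with and without a match were low alike in mouse 4, as a description. The stretches from 45 bases before to 15 after the start are shown for genes described above, 4 with a match and 2 without, written 5′ to 3′ on the strand of the gene, with matches to CTTTCC or CCGGAAG, on either strand, in capitals.
Rpl35: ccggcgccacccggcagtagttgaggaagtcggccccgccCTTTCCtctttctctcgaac
Rps4x: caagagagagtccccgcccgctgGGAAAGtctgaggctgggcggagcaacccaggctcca
Rps3a1: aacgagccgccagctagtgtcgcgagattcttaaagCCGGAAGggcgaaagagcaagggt
Rpl37: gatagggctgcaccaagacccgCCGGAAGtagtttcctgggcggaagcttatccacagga
Rpl12: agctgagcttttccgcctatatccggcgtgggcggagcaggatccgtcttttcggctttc
Rpl9: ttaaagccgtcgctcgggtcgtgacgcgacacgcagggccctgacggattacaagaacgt
In Rpl35 (chr2:39005117-39005176, minus strand), low in mouse 4 alone, CTTTCC begins 5 bases before the start. In Rps4x (chrX:102189377-102189436, minus strand), low in mice 4 and 5, it lies on the opposite strand. In Rps3a1 (chr3:86142654-86142713, minus strand), with its deepest drop in mouse 5, and in Rpl37 (chr15:5116568-5116627, plus strand), with little spread, CCGGAAG lies 9 and 23 bases before the start. Rpl12 (chr2:32961667-32961726, plus strand) and Rpl9 (chr5:65391417-65391476, minus strand) hold no match in this stretch, and Rpl12 was low in mice 4 and 5 while Rpl9 was low in mouse 5 alone. These patterns are those of the chosen probe sets: in mouse 5 another probe set of Rpl35 was at -3.41, one of Rpl37 at -4.95 and the other one of Rpl9 at 1.29 against mice 1 to 3.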

How the data were processed

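Blood neutrophil RNA of 5 individual mice and of 5 portions of 1 pool was measured on Affymetrix MG-430 PM arrays. The deposited values are log2 signals of 45141 probe sets on 10 arrays, made by the authors with RMA per the submitters' processing notes (version not given in the sources used here). The deposited distributions were not alike (array medians 4.50 to 4.74), so a second quantile normalization was an alternative. Symbols came from the platform's gene table: 28898 probe sets had 1 symbol, 551 several, and the others none. All 72 members matched RefSeq by gene ID.

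From these values, the brightest probe set was kept for each gene. Tests covered the 10734 genes whose mean exceeded 4.58, the median over every probe set. The variance between mice was set against the pool variance with limma 3.58.1 (R 4.3.3; squeezeVar with intensity trend, one-sided F test). Means were compared with limma's moderated test, two-sided, with the error from the spread between mice. Benjamini-Hochberg adjustment ran over all 10734 genes, at 0.05. The scripts were tested on simulated data. The number of arrays limits the precision. The replicate numbers of mice and pool arrays pair no animals. Alternatives were another normalization, filter, probe set or test, and leaving out arrays. Named members were those with the largest and smallest SD among mice 1 to 4, the largest SD among all mice, paralogs, stalk proteins, Rpsa, and the 3 largest and 3 smallest mean differences; Rps9, Rps20, Rps21, Rps28, Rpl4, Rpl23a, Rpl27, Rpl31 and Rpl36 and the companion genes with values were named after their values were seen. The members and lists were chosen with earlier results of these data known.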

Additional observations from a re-analysis of the deposited data

Results flagged for a closer look

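Each group of 5 arrays was examined for a sample far from the others, for the named members and the median of each subunit. Of 62 groups, 16 held such a sample. In the pool it was pool 5 in 10 cases, in each of them the lowest array: Rpl34 at 10.41, Rpl37 at 10.66, Rpl39 at 12.04, Rpl41 at 11.25, Rplp2 at 10.92, Rps12 at 9.27, Rps16 at 11.07 and Rps29 at 12.17, and the median relative level of the small subunit at -0.22 and of the large subunit at -0.20. On the chosen probe sets, mouse 5 stood far below the other mice in Rpl7 (6.92), Rpl7l1 (4.35), Rpl9 (7.38) and Rps16 (8.22). It stood far above them in Rpl13 (11.18), where another probe set of the gene was lowest in the same mouse (6.53). Mouse 4 stood far below the others in Rpl35 (8.15).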

How the results depend on the processing

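Of 69 members, 66 varied more between mice than between pool arrays; this count was 0 without mice 4 and 5 and 0 with a Levene type test, 48 with an ordinary F test, and 40 to 69 with 1 array left out at a time, the lowest without mouse 5 and the highest without pool 5. Over all tested genes the count was 7165; it was 10967 with no filter, 4432 with a filter at the 75th percentile, 3760 with an ordinary F test, 0 with the Levene type test (0 members and 836 genes at an unadjusted p under 0.05), 76 without mice 4 and 5, and 2176 to 7594 with 1 array left out. With both mouse 5 and pool 5 left out, an alternative chosen after seeing the data, 62 members and 2036 genes were called; with mice 4 and 5 and pool 5 left out, also chosen afterwards, 0 members (limma; 26 at an unadjusted p under 0.05) and 47 genes. The means of mice and pool differed in 0 members, and in 1 without mice 4 and 5. Over all tested genes they differed in 0; in 468 without mice 4 and 5, in 288 with an ordinary 2-group fit, in 188 with the replicate number as a block, and in 0 to 155 with 1 array left out, the highest without mouse 5. By design the replicate numbers pair no animals, since the pool came from further mice. The correlations of same-numbered deviations were 0.50, -0.26, 0.33, -0.20 and 0.44. Mouse 1 and pool 1 matched each other best, and pool 5 matched mouse 5 best, but not the reverse. Shared handling of arrays with the same number was not tested. The small minus large difference stayed between -0.03 and 0.15.

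Without mice 4 and 5 the log2 variance ratio turned below 0 for Rpl12 (-3.81), Rpl13 (-4.17), Rpl22 (-0.43), Rpl36a (-1.39), Rpl37 (-0.53), Rpl41 (-3.32), Rpl7l1 (-0.87), Rpl9 (-1.40), Rplp2 (-2.31), Rps16 (-1.44), Rps27l (-0.42) and Rps29 (-0.61), from fewer mice. With 1 array left out it ran from -3.56 to 4.15 for Rpl13, from -0.31 to 3.48 for Rpl37 and from -0.12 to 7.56 for Rpl9. With the probe set of median mean, Rpl39 had a ratio of -2.44 and a mean difference of -0.20; centred on array medians, its mean difference was -0.0105. The mean difference of Rps12 was 0.0526 without mice 4 and 5. With 1 array left out the mean difference ran from -0.13 to 0.58 for Rpl14, from -0.17 to 0.36 for Rpl34 and from -0.15 to 0.20 for Rpl39. For these reversals of single genes by probe set or scaling, the cause was not tested. Signal near the filter limits Rpl14, Rpl36a and Rps19bp1, and probe sets under it give no measure of Rpl39l, Rpl3l and Rps15a.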
